A study of Mus musculus with 23 samples.

Results

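The 9 genes described here, Procr, Fgd5, Hlf, Mecom, Mllt3, Meis1, Gfi1, Ndn and Ctnnal1, are known as markers or regulators of mouse blood stem cells. They were picked by symbol from the 24454 genes of a table of read counts, and all 9 passed the filter on low counts in both library protocols. RNA was measured by RNA-seq in 23 libraries of marrow cells sorted from C57BL/6 mice of 2 genotypes, with tamoxifen given to both on 5 days and marrow taken 12 weeks later. SF1 mice carry SclCre, a Cre recombinase under control elements of the blood stem cell gene Scl, together with V617F, known as an activating mutation of the kinase JAK2. WT mice are wild type, so they carry neither and differ from SF1 mice in both. SF1 megakaryocyte progenitors (MkP), with 3 libraries, all from females, and WT MkP, with 3, all from females, were sorted as cells that lacked lineage markers and Sca-1 and carried Kit, CD150 and CD41. SF1 long-term stem cells (LT-HSC), with 3 libraries, all from males, and WT LT-HSC, with 3, all from females, were sorted as cells that carried Kit, Sca-1 and CD150 and lacked lineage markers and CD48. The same gate was split by CD41 (the integrin subunit Itga2b) into SF1 CD41-positive HSC (3 libraries), WT CD41-positive HSC (2), SF1 CD41-negative HSC (3) and WT CD41-negative HSC (3). In these fractions replicate 2 of SF1 is labelled male and every other library female. MkP and LT-HSC were made with SMART-Seq v2 and the CD41 fractions with SMART-Seq v4, so the protocols were scaled and tested apart. Apart from this difference in sex, the labels do not say that the libraries of a group came from different mice. The p-values thus measure the spread between these libraries, which may be technical. The difference in sex sets only replicate 2 of SF1 in the CD41 fractions apart as another mouse.

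A blood stem cell either stays quiescent and renews itself or leaves that state for the lineages. The protein C receptor Procr, a surface protein, and the guanine exchange factor Fgd5 mark the self-renewing cells in mice. Transcription factors (Hlf, Mecom, Meis1, Gfi1) and the chromatin reader Mllt3 maintain the state, and Ndn restrains cell division. A subset of CD41-positive, CD150-positive stem cells is known to lean towards platelets, and MkP are the progenitors committed to that fate.

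The promoters of 4 genes from the patterns below are shown as letters. Ndn and Mllt3 were the members lower in SF1 cells of both CD41 fractions, and Procr and Ctnnal1 moved in opposite directions between the fractions. For Mllt3, which has more than 1 start site in RefSeq, the upstream one is shown. Each window is RefSeq sequence of the build GRCm38.p6, from 250 bases before to 50 bases after a start site, 5′ to 3′ on the gene's strand, and capitals mark the letters of 6 searched motifs.
Procr, chr2:155750967-155751266, plus strand: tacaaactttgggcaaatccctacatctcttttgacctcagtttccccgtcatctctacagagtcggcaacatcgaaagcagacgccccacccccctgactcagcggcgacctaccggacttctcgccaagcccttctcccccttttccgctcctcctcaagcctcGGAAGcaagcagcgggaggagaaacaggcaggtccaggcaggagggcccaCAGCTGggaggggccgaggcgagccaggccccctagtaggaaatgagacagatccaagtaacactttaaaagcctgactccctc
Ctnnal1, chr4:56865162-56865461, minus strand: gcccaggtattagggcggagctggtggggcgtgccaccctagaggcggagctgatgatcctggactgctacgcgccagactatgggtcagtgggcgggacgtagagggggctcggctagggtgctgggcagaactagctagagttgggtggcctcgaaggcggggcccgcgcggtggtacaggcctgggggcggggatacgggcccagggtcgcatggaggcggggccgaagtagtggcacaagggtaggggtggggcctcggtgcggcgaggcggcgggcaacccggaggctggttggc
Ndn, chr7:62348027-62348326, plus strand: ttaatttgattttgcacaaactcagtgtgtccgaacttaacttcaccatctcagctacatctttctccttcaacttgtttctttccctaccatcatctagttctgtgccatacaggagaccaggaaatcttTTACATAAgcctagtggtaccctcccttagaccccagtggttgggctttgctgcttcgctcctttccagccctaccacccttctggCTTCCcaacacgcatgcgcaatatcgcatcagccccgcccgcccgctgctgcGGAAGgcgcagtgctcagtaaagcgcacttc
Mllt3, chr4:88033358-88033657, minus strand: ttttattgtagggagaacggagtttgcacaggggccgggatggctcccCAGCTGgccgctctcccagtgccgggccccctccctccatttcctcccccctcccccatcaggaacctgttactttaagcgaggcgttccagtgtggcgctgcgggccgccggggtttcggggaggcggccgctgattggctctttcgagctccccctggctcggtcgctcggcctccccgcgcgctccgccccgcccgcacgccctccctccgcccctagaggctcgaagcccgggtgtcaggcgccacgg
The motifs were searched on both strands in all 12 windows that RefSeq gives for the 9 genes. TTCNNNGAA, the letters that STAT factors (activated by JAK2) read, was in 0 of the 12 windows, against 8.3% of 32851 promoters of all genes. TTACNTAA, the letters read by the family of Hlf, was in 1 window, that of Ndn, as TTACATAA at position -119 from the start site, and in 2.32% of all promoters. GATAA (GATA factors) was in 2 windows and in 25.4% of all promoters, and TGACAG (Meis factors) was in 3 and in 19.2%. CANNTG (E-box factors such as Scl) and GGAAG (ETS factors) were each in 8 windows, and in 72.3% and 71.4% of all promoters. The window of Ctnnal1 held none of the 6, that of Procr held CAGCTG at -34 and GGAAG at -84, and that of Mllt3 held CAGCTG at -202. In the window of Ndn, GGAAG matched at 20 and, on the other strand, at -33. No 2 matches overlap in the 4 windows shown. A match describes letters and shows no binding.

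Libraries held 17579314 to 49191435 counts, with a median of 22196210. Levels are CPM, counts divided by the size of the library and put on the usual CPM scale, with library sizes scaled by TMM, a method that balances library composition. WT libraries of the v2 protocol were sequenced deeply, at 30927779 to 41128677 counts in MkP and 34642290 to 49191435 in LT-HSC, yet held fewer genes: genes with a count numbered 14953 ± 281 in SF1 MkP against 11995 ± 491 in WT MkP, and 15547 ± 217 in SF1 LT-HSC against 13365 ± 466 in WT LT-HSC (SD, n = 3 each). Among genes averaging at least 10 CPM over the v2 libraries, 0.0209% to 0.0836% had no count in SF1 MkP libraries and 1.22% to 4.20% in WT MkP libraries. WT LT-HSC library 30 resembled libraries 31 and 32 of its group less (Spearman 0.736 and 0.743) than those resembled each other (0.885). Jak2 itself averaged 192 ± 17.9 CPM in SF1 and 179 ± 19.8 CPM in WT CD41-positive HSC (n = 3 and 2), 236 ± 19.8 and 217 ± 28.2 CPM in CD41-negative HSC, 82.2 ± 21.5 and 24.8 ± 11.1 CPM in LT-HSC, and 115 ± 13.1 and 41.9 ± 5.47 CPM in MkP (SF1 and WT, n = 3 each), and the mutant allele cannot be read from these counts.

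Per kilobase of transcript, Meis1 was the highest of the 9 genes in every group, from 133 ± 19.7 CPM per kb in WT MkP to 207 ± 47.7 in WT CD41-negative HSC. In CD41-negative HSC the next in level were Hlf and Procr, at 80.6 ± 4.57 and 77.9 ± 11.2 CPM per kb in SF1 and 100.3 ± 23.5 and 95.5 ± 10.1 in WT, differences within their SD. Gfi1 was the lowest there, at 10.01 ± 3.54 CPM per kb in SF1 and 8.43 ± 2.65 in WT. In CD41-positive HSC the places behind Meis1 were taken by other genes: Ctnnal1 was second in SF1, at 34.0 ± 3.15 CPM per kb, and Ndn in WT, at 42.4 ± 0.903. In MkP, Ctnnal1 was second in both genotypes, at 25.1 ± 2.25 CPM per kb in SF1 and 29.6 ± 6.21 in WT, and the other 7 genes were below 10 CPM per kb on average. Meis1 and Ctnnal1 thus led in MkP, while Procr, Fgd5 and Gfi1 were each below 0.5 CPM per kb in both genotypes.

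**Figure D1:**
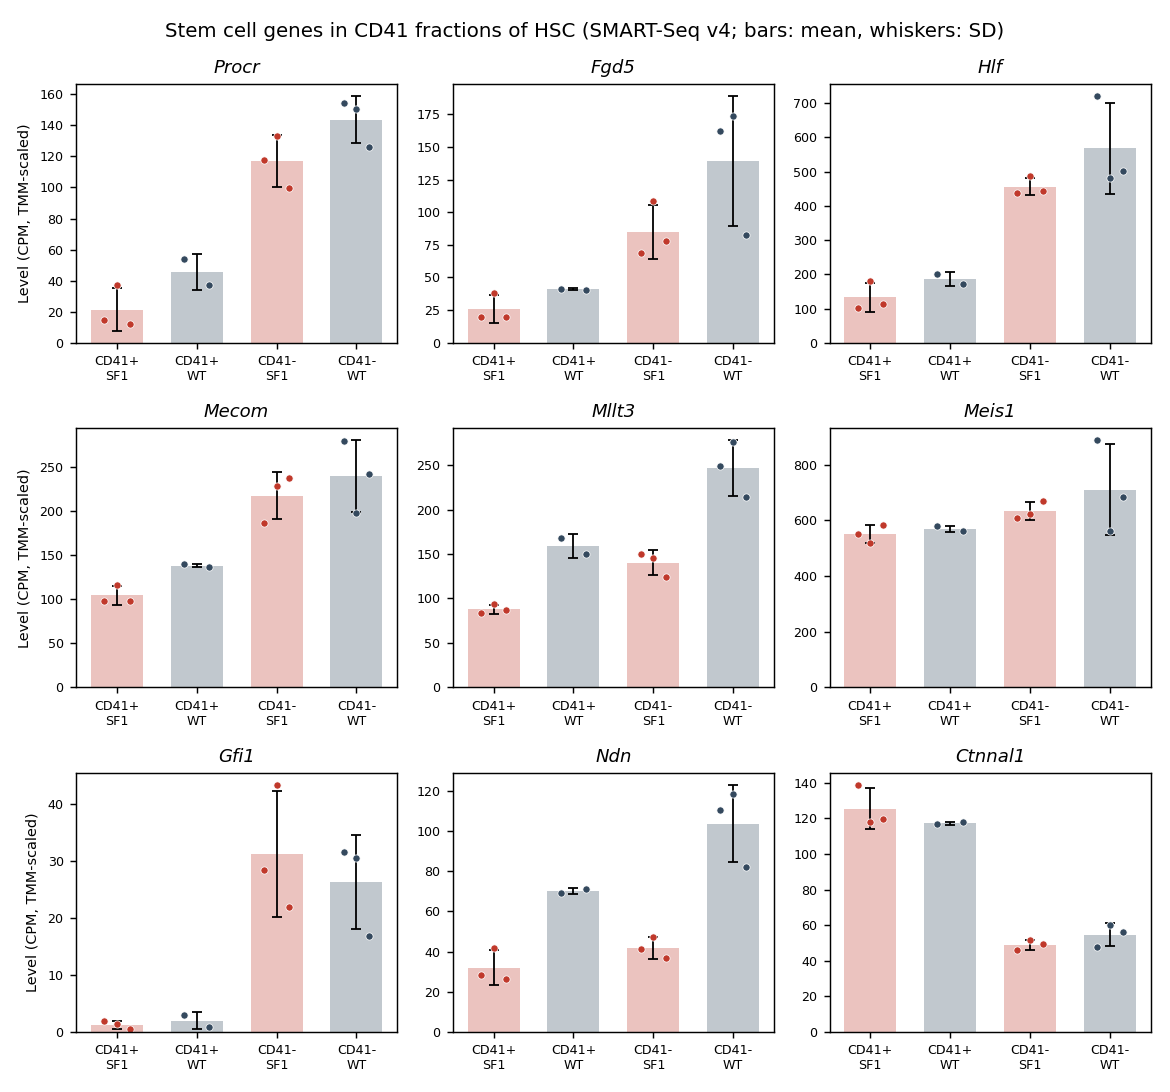
Level of each gene in CPM (linear axis from 0) in every library of the CD41 fractions, with points for libraries, bars for group means and whiskers for SD. Procr, Fgd5, Hlf and Gfi1 sit far lower in CD41-positive than in CD41-negative HSC of both genotypes, Ctnnal1 sits higher, and Mllt3 and Ndn are lower in SF1 than in WT within each fraction.

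CD41-positive stem cells held less RNA of most of these genes than CD41-negative ones, in both genotypes, and more of Ctnnal1. By edgeR's quasi-likelihood test with Benjamini-Hochberg adjustment over all 14467 genes of the protocol and a threshold of 0.05, 6 members were lower and 1 higher in SF1, and likewise 6 lower and 1 higher in WT. Of all genes tested, 34.3% passed in SF1 (17.9% lower, 16.4% higher) and 34% in WT (18.2% lower, 15.7% higher). The median log2 fold change of the 9 members was -1.06 in SF1, where that of all genes was -0.02, and -0.80 in WT, where that of all genes was -0.04. In bulk samples, fewer cells with a gene on and less of its RNA per cell cannot be told apart. The members called were the same 7 in both genotypes, namely Procr, Fgd5, Hlf, Mecom, Mllt3, Gfi1 and Ctnnal1.

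The surface and signalling markers were among the largest differences. Procr had 14.4, 37.4 and 12.2 CPM in the 3 SF1 CD41-positive libraries, against 118, 133 and 99.9 CPM in the SF1 CD41-negative ones. In WT it had 53.8 and 37.5 CPM in CD41-positive libraries, against 154, 151 and 126 CPM in CD41-negative ones. The fractions did not overlap in either genotype, and the log2 fold changes were -2.45 ± 0.34 (SE; adjusted p = 0.000192, edgeR) in SF1 and -1.65 ± 0.38 (0.00676) in WT. Fgd5, which activates the small GTPase Cdc42, had 19.8, 38.2 and 19.8 CPM in SF1 CD41-positive libraries, against 68.5, 108 and 77.8 CPM in CD41-negative ones. In WT it had 41.5 and 40.7 CPM in CD41-positive libraries, against 162, 173 and 82.3 CPM in CD41-negative ones. Every CD41-positive library was below every CD41-negative library of its genotype, with log2 fold changes of -1.71 ± 0.30 in SF1 and -1.76 ± 0.35 in WT (edgeR adjusted p = 0.00108 and 0.00344).

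Among the transcription factors Gfi1, a repressor that restrains stem cell division, differed most. It had 1.88, 1.40 and 0.469 CPM in SF1 CD41-positive libraries, against 28.3, 43.3 and 21.8 CPM in CD41-negative ones. WT CD41-positive libraries had 2.98 and 0.862 CPM, against 31.5, 30.4 and 16.7 CPM in CD41-negative ones. The CD41-positive values rest on 10 to 61 counts a library, yet the highest of them was far below the lowest CD41-negative value, with log2 fold changes of -4.66 ± 0.51 in SF1 and -3.78 ± 0.57 in WT (edgeR adjusted p = 3.97e-05 and 0.000628). Hlf, a bZIP factor of stem cells, averaged 132 ± 43.1 CPM in CD41-positive and 456 ± 25.9 CPM in CD41-negative HSC of SF1 (SD, n = 3 each), a log2 fold change of -1.79 ± 0.22 (adjusted p = 8.12e-05, edgeR). In WT it averaged 187 ± 20.6 CPM in CD41-positive (n = 2) and 568 ± 133 CPM in CD41-negative HSC (n = 3), a log2 fold change of -1.60 ± 0.25 (edgeR adjusted p = 0.000803). Hlf thus fell in CD41-positive cells of both genotypes, and its SF1 CD41-positive library 2, at 182 CPM, was the one nearest to the other fraction.

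Mecom, which encodes the zinc finger factor EVI1, fell less, with log2 fold changes of -1.06 ± 0.14 in SF1 (98.3, 116 and 98.0 CPM, against 187, 228 and 237 CPM) and -0.80 ± 0.16 in WT (139 and 136 CPM, against 279, 198 and 241 CPM). Mllt3, whose YEATS domain reads acylated histones, was lower by a similar amount in both genotypes, with -0.67 ± 0.12 in SF1 and -0.63 ± 0.14 in WT. The edgeR adjusted p of Mecom was 0.000166 in SF1 and 0.00381 in WT, and that of Mllt3 0.00129 and 0.00578. Without WT CD41-positive library 4, the WT calls of Procr, Mecom and Mllt3 ended (adjusted p = 0.0915, 0.0535 and 0.0853), leaving 4 members called.

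Ctnnal1, a relative of alpha-catenin, was the member that rose. It had 139, 118 and 119 CPM in SF1 CD41-positive libraries, against 45.7, 51.5 and 49.5 CPM in CD41-negative ones, a log2 fold change of 1.36 ± 0.12 (edgeR adjusted p = 9.40e-06). In WT it had 117 and 118 CPM in CD41-positive libraries, against 47.7, 60.3 and 56.0 CPM in CD41-negative ones, a log2 fold change of 1.10 ± 0.13 (edgeR adjusted p = 0.000117). Levels within each group were close, and the fractions did not overlap. Ndn and Meis1 did not pass, with -0.38 ± 0.19 and -0.20 ± 0.16 in SF1 and -0.57 ± 0.21 and -0.32 ± 0.18 in WT. Ndn lay at the threshold in WT, at an edgeR adjusted p of 0.0534, and passed under 5 of 13 alternatives, among them DESeq2 (0.0345) and limma-voom (0.042), with adjusted p of 0.0105 to 0.209 over all 13. In SF1, libraries of equal number in the 2 fractions resembled each other, and with the number as a block Ndn passed there, at -0.41 (edgeR adjusted p = 0.046).

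**Figure D2:**
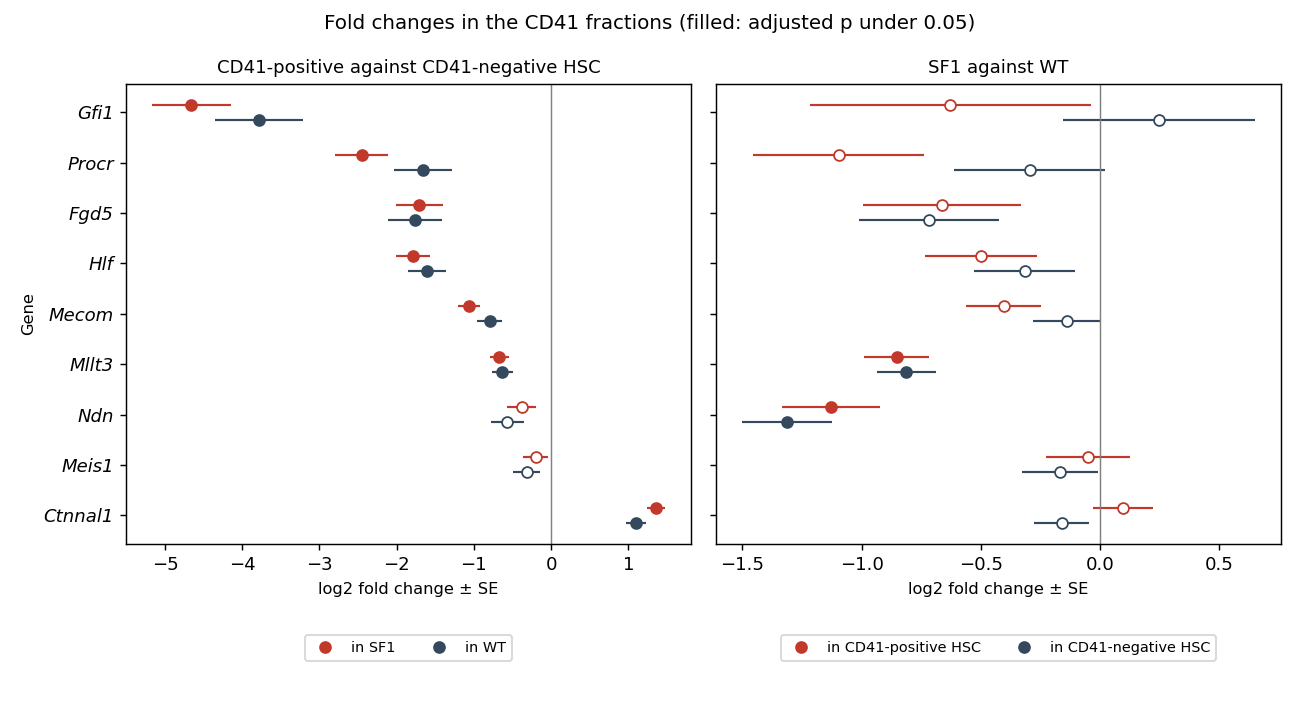
Log2 fold change with SE (horizontal axis) of each gene in 4 comparisons of the CD41 fractions, with filled points for genes that passed. On the left 7 genes passed in each genotype, from -4.66 for Gfi1 to 1.36 for Ctnnal1 in SF1; on the right Mllt3 and Ndn passed in both fractions.

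In this comparison, where 34.3% of all genes passed in SF1 and 34% in WT, markers of several lineages were called, megakaryocyte markers most often. Of 10 markers, 9 were higher in CD41-positive HSC of each genotype, one of them the sorted antigen Itga2b. Their summed level was 1967 to 2825 CPM in SF1 CD41-positive and 964 to 1131 CPM in SF1 CD41-negative HSC, and 3202 to 3409 CPM in WT CD41-positive and 1602 to 1794 CPM in WT CD41-negative HSC. All 10 had counts in each group, and the part of these and the following markers in the differences of the 9 genes was not tested. Of 3 markers of multipotent progenitors, Flt3 and Cd34 were lower in CD41-positive HSC of both genotypes, with Cd48 used in the gate. Of 8 endothelial and stromal markers tested, 1 was higher and 2 lower in CD41-positive HSC of SF1, and 3 higher and 1 lower in WT. Erythroid markers numbered 4 higher of 10 in CD41-positive HSC of SF1 (sums of 127 to 170 CPM, against 50.9 to 71.0 CPM in CD41-negative HSC), and 1 higher and 2 lower in WT (171 to 217 CPM, against 178 to 281 CPM). Lymphoid markers were lower for 3 of the 5 tested in SF1 (52.7 to 62.9 CPM, against 140 to 158 CPM) and for 2 in WT (82.7 to 102 CPM, against 208 to 233 CPM), with Cd3e at 0 in all 4 groups. Monocyte and macrophage markers were lower for 3 of the 9 tested in SF1 and 2 in WT. Of 10 granulocyte markers, 1 was lower in CD41-positive HSC of SF1 and 5 in WT.

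Within the CD41 fractions, SF1 cells held less Mllt3 and Ndn than WT cells. In CD41-negative HSC 2 of the 9 members passed, both lower, where 13.4% of all genes passed (7.94% lower, 5.48% higher). In CD41-positive HSC the same 2 passed, both lower, where 1.16% of all genes passed (0.94% lower, 0.221% higher). The median log2 fold change of the members was -0.29 against -0.01 for all genes in CD41-negative HSC, and -0.63 against 0.03 in CD41-positive HSC.

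Ndn, an imprinted gene whose product restrains cell division, had 41.3, 47.3 and 36.7 CPM in SF1 CD41-negative libraries, against 111, 119 and 82.1 CPM in WT ones. In CD41-positive HSC it had 28.1, 41.9 and 26.1 CPM in SF1 libraries, against 69.0 and 71.1 CPM in WT ones. Every SF1 library was below every WT library of its fraction, with log2 fold changes of -1.31 ± 0.19 in CD41-negative (edgeR adjusted p = 0.0032) and -1.13 ± 0.21 in CD41-positive HSC (0.0221). Mllt3 had 150, 146 and 125 CPM in SF1 CD41-negative libraries, against 248, 277 and 214 CPM in WT ones. In CD41-positive HSC it had 83.7, 93.6 and 86.6 CPM in SF1 libraries, against 168 and 150 CPM in WT ones. Again the genotypes did not overlap, with log2 fold changes of -0.81 ± 0.12 in CD41-negative (edgeR adjusted p = 0.00391) and -0.85 ± 0.14 in CD41-positive HSC (0.00966). In CD41-negative HSC both calls held without each single library in turn. In CD41-positive HSC both ended without WT library 3 or 4 or SF1 library 1 or 3, where the adjusted p of Mllt3 ran from 0.0502 to 0.194 and that of Ndn from 0.0946 to 0.197.

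The other members did not pass between genotypes. Procr averaged 21.3 ± 14.0 CPM in SF1 and 45.7 ± 11.5 CPM in WT CD41-positive HSC (SD, n = 3 and 2), a log2 fold change of -1.10 ± 0.36 (edgeR adjusted p = 0.221). The 3 SF1 libraries spread widely, and the highest, replicate 2 from the male, lay just below the lower WT library. Without it Procr passed, at -1.78 (edgeR adjusted p = 0.00254), and without the male libraries of both fractions likewise, at -1.78 (0.00332). That library was also the highest SF1 CD41-positive one in Fgd5 (38.2 CPM), Hlf (182 CPM), Mecom (116 CPM), Mllt3 (93.6 CPM) and Ndn (41.9 CPM). In Meis1, Gfi1 and Ctnnal1 it was not the highest. Sex and mouse cannot be told apart in that library.

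In CD41-negative HSC, Fgd5 averaged 84.8 ± 20.7 CPM in SF1 and 139 ± 49.7 CPM in WT (n = 3 each), at -0.72 ± 0.29 (edgeR adjusted p = 0.102), and WT library 4 lay at 82.3 CPM among the SF1 values. Without that library Fgd5 passed, at -0.99 (edgeR adjusted p = 0.009). Meis1 and Ctnnal1 stayed close between genotypes, with log2 fold changes of -0.05 ± 0.18 and 0.10 ± 0.13 in CD41-positive and -0.17 ± 0.16 and -0.16 ± 0.12 in CD41-negative HSC. Hlf was at -0.50 ± 0.23 and -0.32 ± 0.21, Mecom at -0.40 ± 0.16 and -0.14 ± 0.14 and Gfi1 at -0.63 ± 0.59 and 0.25 ± 0.40 in CD41-positive and CD41-negative HSC.

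Whether the genotype effect differed between the fractions was tested by the difference of the log2 fold changes. No member passed with edgeR, as 0 of 14467 genes did, and DESeq2 and limma-voom also called 0 members, with 6 and 0 genes called in all. At an unadjusted p under 0.05 there were 0 members. The difference was -0.04 ± 0.18 for Mllt3 and 0.18 ± 0.28 for Ndn (CD41-positive minus CD41-negative), and the farthest from 0 were Gfi1 at -0.87 ± 0.72 and Procr at -0.80 ± 0.48.

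Markers of other cells moved with genotype in the same libraries. Of 10 erythroid markers, 9 were lower in SF1 CD41-negative HSC, where they summed to 50.9 to 71.0 CPM, against 178 to 281 CPM in WT. In CD41-positive HSC 5 were lower, with sums of 127 to 170 CPM in SF1 and 171 to 217 CPM in WT. Megakaryocyte markers numbered 5 lower of 10 in CD41-negative and 0 called in CD41-positive HSC. Of the 3 progenitor markers Flt3, Cd48 and Cd34, 3 were higher in SF1 CD41-negative HSC, with sums of 798 to 879 CPM in SF1 and 436 to 633 CPM in WT, and Cd48 was higher in SF1 CD41-positive HSC, with sums of 342 to 513 CPM in SF1 and 226 to 246 CPM in WT. None of these lists had a marker at 0 in those groups. Monocyte and macrophage markers numbered 5 lower and 1 higher of 9 tested in SF1 CD41-negative HSC (sums of 30.4 to 35.1 CPM in SF1 and 31.98 to 43.6 CPM in WT, with Adgre1 at 0 in SF1) and 1 lower in CD41-positive HSC. Of 5 lymphoid markers tested, 2 were lower in SF1 CD41-negative and 1 in SF1 CD41-positive HSC. The part of these markers in the lower Mllt3 and Ndn was not tested.

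MkP held far less Procr, Fgd5 and Hlf than LT-HSC. In SF1 3 members passed, all lower, where 1.09% of all 14281 genes passed (0.714% lower, 0.378% higher). In WT the same 3 passed, all lower, where 8.9% of all genes passed (6.58% lower, 2.32% higher). The median log2 fold change of the members was -2.94 in SF1, against -0.06 for all genes, and -2.89 in WT, against -0.20, or -2.20 with genes at 0 in WT MkP taken at their bound.

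Procr had 0.602, 0.850 and 0.502 CPM in SF1 MkP libraries, against 88.2, 106 and 77.9 CPM in SF1 LT-HSC ones, a log2 fold change of -7.12 ± 0.68 (edgeR adjusted p = 0.000292). In WT a single count was found over the 3 MkP libraries, against 11015 counts over the 3 LT-HSC ones, a ratio of 11039 in favour of LT-HSC with an exact 95% interval of 1981 to 436048 that covers counting error only. WT LT-HSC levels of Procr were 192, 56.9 and 85.5 CPM, with the highest in library 30. Procr was thus near absent from MkP of either genotype at this depth.

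Fgd5 had 1.93, 1.81 and 2.54 CPM in SF1 MkP libraries, against 31.9, 20.4 and 38.8 CPM in SF1 LT-HSC ones, a log2 fold change of -3.85 ± 0.69 (edgeR adjusted p = 0.0312). In WT MkP it had 0 counts in all 3 libraries, against 34.2, 20.0 and 49.5 CPM in WT LT-HSC ones. With each MkP library set at 3 counts this is at least 418-fold lower, a bound for counting error only. WT MkP libraries lacked counts for 1.22% to 4.20% of the well-expressed genes, against 0.115% to 0.867% in WT LT-HSC libraries. The part of this in the near absence of Fgd5 and Procr from WT MkP was not tested. Hlf kept a measurable level in MkP, at 27.2, 25.5 and 19.2 CPM in SF1 libraries, against 167, 160 and 225 CPM in SF1 LT-HSC ones. In WT it had 14.6, 29.7 and 45.2 CPM in MkP, against 101, 137 and 173 CPM in LT-HSC. Populations did not overlap in either genotype, and the log2 fold changes of Hlf were -2.94 ± 0.43 in SF1 and -2.20 ± 0.42 in WT (edgeR adjusted p = 0.00607 and 0.00807).

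The SF1 calls rest on few libraries: without any one of the 3 SF1 MkP libraries Procr alone passed, and without any one SF1 LT-HSC library Fgd5 did not pass, with adjusted p of 0.0932 to 0.147 for Fgd5 without an LT-HSC library. Mllt3, Ndn and Gfi1 were lower in every MkP library than in every LT-HSC library of their genotype without passing in edgeR. Mllt3 had 24.5, 28.6 and 29.9 CPM in SF1 MkP, against 103, 110 and 109 CPM in SF1 LT-HSC (-1.95 ± 0.53, edgeR adjusted p = 0.151), and 14.7, 46.7 and 46.1 CPM in WT MkP, against 63.8, 78.0 and 229 CPM in WT LT-HSC (-1.79 ± 0.53, edgeR adjusted p = 0.0556). The WT difference of Mllt3 lies at the threshold: it passed under 6 of 13 alternatives, among them edgeR with RLE scaling (adjusted p = 0.0464), DESeq2 (0.00554), limma-voom (0.049) and edgeR without WT LT-HSC library 30 (-2.10, adjusted p = 0.0246) or 31 (-2.03, adjusted p = 0.0452), with adjusted p of 0.00554 to 0.374 over all 13. DESeq2 also called Ndn in both genotypes, Mllt3 in SF1 and Gfi1 in WT.

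Ndn had 6.32, 5.88 and 5.73 CPM in SF1 MkP, against 47.2, 77.9 and 58.3 CPM in SF1 LT-HSC, at -3.36 ± 1.17. Its WT MkP libraries did not resemble each other, at 28.2, 18.5 and 0.0327 CPM, the last from 1 count, against 173, 74.5 and 98.7 CPM in WT LT-HSC. Mecom was as uneven in WT MkP, at 30.8, 0 and 8.20 CPM, while SF1 MkP had 29.1, 27.7 and 20.7 CPM. Its LT-HSC levels were 67.6, 38.3 and 125 CPM in SF1, against 12.4, 146 and 209 CPM in WT, with library 30 the lowest.

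Meis1 and Ctnnal1 were not lower in MkP. Meis1, a homeobox factor that stem cells and megakaryocytes share, averaged 485 ± 30.6 CPM in MkP and 467 ± 94.1 CPM in LT-HSC of SF1, at 0.05 ± 0.43, and 459 ± 67.7 CPM and 517 ± 301 CPM in WT, at -0.17 ± 0.43. WT LT-HSC library 30 had 173 CPM of it, against 731 and 648 CPM in the other two. Ctnnal1 averaged 92.5 ± 8.28 CPM in MkP and 38.8 ± 18.2 CPM in LT-HSC of SF1, at 1.25 ± 0.69, and 109 ± 22.9 CPM in MkP and 40.3 ± 45.4 CPM in LT-HSC of WT, at 1.44 ± 0.69 (edgeR adjusted p = 0.616 and 0.202). Its WT LT-HSC libraries ran from 8.91 to 92.4 CPM, and without the highest, library 31, the WT difference passed at 2.94 (edgeR adjusted p = 0.00917).

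**Figure D3:**
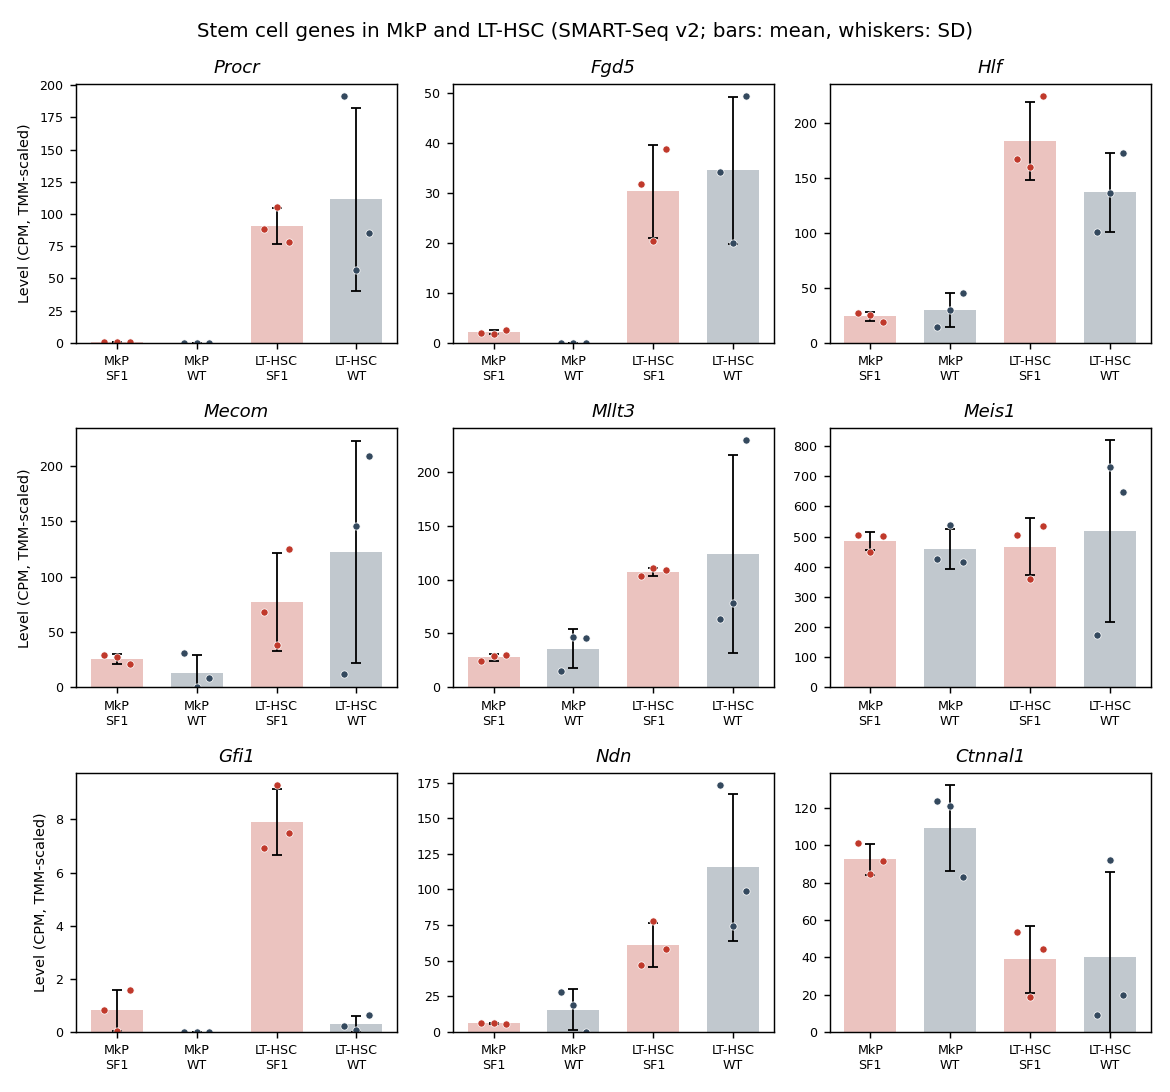
Level of each gene in CPM (linear axis from 0) in every library of MkP and LT-HSC, with points for libraries, bars for group means and whiskers for SD. Procr, Fgd5 and Gfi1 are near 0 in MkP, Meis1 is level across populations, and WT LT-HSC points of Procr, Mecom, Mllt3, Meis1 and Ctnnal1 are widely spread.

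Of the 10 megakaryocyte markers, 6 were higher in MkP of each genotype, with sums of 5176 to 6546 CPM in SF1 MkP and 1292 to 1356 CPM in SF1 LT-HSC, and 5119 to 5942 CPM in WT MkP and 890 to 3396 CPM in WT LT-HSC. The gates also differ in Sca-1. SF1 MkP came from females and SF1 LT-HSC from males, so population and sex cannot be told apart in the SF1 comparison, while both WT populations came from females.

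Between genotypes, MkP showed traces of Fgd5 and Procr in SF1 where WT had 0 counts of Fgd5 and 1 of Procr. In MkP 2 members passed, both higher, where 1.75% of all genes passed (1.62% higher, 0.126% lower). Fgd5 had 45, 49 and 86 counts in the SF1 libraries and 0 in each WT library, at least 25.3-fold higher against 3 counts per WT library (edgeR adjusted p = 0.00372). Procr had 14, 23 and 17 counts in the SF1 libraries and 0, 0 and 1 in WT ones, a ratio of 70.8 with an exact 95% interval of 12.2 to 2848 for counting error (edgeR adjusted p = 0.00911). Gfi1 had 19, 1 and 53 counts in SF1 MkP and 0 in each WT library, at least 9.74-fold higher by group mean, and did not pass (edgeR adjusted p = 0.0696), while DESeq2 and limma-voom called it (adjusted p = 0.00156 and 0.0457). The call of Procr ended with limma-voom (adjusted p = 0.0574) and in an edgeR fit of the MkP groups alone (0.0535).

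These levels, 2.09 ± 0.39 CPM of Fgd5 and 0.651 ± 0.179 CPM of Procr in SF1 MkP (SD, n = 3), are small beside the 30.3 ± 9.29 and 90.6 ± 14.1 CPM in SF1 LT-HSC. WT MkP also lacked counts for more of the well-expressed genes, as given above, and their summed granulocyte markers were 8334 to 12299 CPM, against 1131 to 2575 CPM in SF1 MkP. Of those 10 markers 1 (Mpo) was lower in SF1 MkP and none was at 0 in either group, and the part of either feature in the traces was not tested. Erythroid markers summed to 167 to 197 CPM in SF1 MkP and 597 to 655 CPM in WT MkP, with 2 of 10 lower (Car1 and Ermap) and none at 0. Hlf, Mllt3, Meis1 and Ctnnal1 were at -0.31 ± 0.40, -0.37 ± 0.52, 0.08 ± 0.43 and -0.24 ± 0.68 between SF1 and WT MkP. Ndn was at -1.39 ± 1.09 and Mecom at 0.99 ± 1.33, with overlapping libraries.

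In LT-HSC 0 members passed with edgeR, where 0.063% of all genes passed (0.035% lower, 0.028% higher), and 1, Gfi1, had an unadjusted p under 0.05. Gfi1 had 6.92, 9.30 and 7.50 CPM in SF1 libraries, against 0.203, 0.0566 and 0.617 CPM in WT ones. All SF1 libraries were above all WT ones, on 167 to 180 counts in SF1 and 2 to 31 counts in WT, with a log2 fold change of 4.73 ± 1.53 (edgeR adjusted p = 0.234). DESeq2 and limma-voom each called it (adjusted p = 0.0268 and 0.042). SF1 LT-HSC came from males and WT LT-HSC from females, so genotype and sex cannot be told apart here. WT LT-HSC libraries also lacked counts for 0.115% to 0.867% of the well-expressed genes, against 0% to 0.0209% in SF1 LT-HSC. The part of this in the Gfi1 difference was not tested. In the CD41-negative fraction of the same gate Gfi1 was at 31.1 ± 11.01 CPM in SF1 and 26.2 ± 8.22 CPM in WT, a comparison within the other protocol.

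Mllt3 and Ndn, lower in SF1 in the CD41 fractions, were at -0.21 ± 0.52 and -0.92 ± 1.08 in LT-HSC, with overlapping libraries. Ndn had 47.2, 77.9 and 58.3 CPM in SF1 LT-HSC, against 173, 74.5 and 98.7 CPM in WT ones. The SE of these values is several times that in the CD41 fractions, so a difference of the size seen there was not detectable in LT-HSC. Procr, at -0.30 ± 0.51, turned to 0.36 without WT library 30. Granulocyte markers summed to 475 to 1177 CPM in SF1 LT-HSC and 3746 to 6863 CPM in WT, with 0 of 10 called and none at 0. Erythroid markers summed to 77.9 to 129 CPM in SF1 LT-HSC and 186 to 563 CPM in WT, with 1 of 10 lower (Car1).

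The difference of the genotype effects, MkP minus LT-HSC, passed for 2 members, Fgd5 and Procr, where 0.455% of all genes passed (0.427% higher, 0.028% lower). Both differences rest on the WT MkP libraries with 0 or 1 count, and in their LT-HSC arm genotype and sex cannot be told apart. Both calls ended without SF1 LT-HSC library 6, 7 or 8 or SF1 MkP library 2. That of Procr also ended without SF1 MkP library 1 or 3 and with limma-voom (adjusted p = 0.228).

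Around the 9 genes, 32 other stem cell regulators were read as a list. In SF1 against WT CD41-negative HSC 9 were lower and 1 higher, where 13.4% of all genes passed (7.94% lower, 5.48% higher). The median log2 fold change of the list was -0.30, against -0.01 for all genes. The 4 with the smallest p were all lower: Cdkn1c, a cell cycle inhibitor (30.3 ± 3.58 CPM in SF1 and 78.3 ± 15.8 CPM in WT), the bHLH factor Lyl1 (25.1 ± 2.94 and 128 ± 89.4 CPM), the bHLH factor Tcf15 (16.3 ± 1.08 and 30.8 ± 8.999 CPM) and the zinc finger factor Gata2 (430 ± 15.5 and 698 ± 161 CPM). In CD41-positive HSC and LT-HSC 0 of the 32 passed between genotypes. In MkP 1 passed, higher in SF1, where 1.75% of all genes passed. Between the CD41 fractions, 5 were higher and 9 lower in SF1 (34.3% of all genes passed), and 4 higher and 10 lower in WT (34% of all genes). Ly6a, the Sca-1 antigen of the gate, and Robo4, a roundabout receptor, were lower in CD41-positive HSC of both genotypes, at -2.08 ± 0.19 and -1.53 ± 0.19 in SF1 and -1.66 ± 0.21 and -1.42 ± 0.21 in WT. In MkP against LT-HSC, 3 were lower and 1 higher in SF1, where 1.09% of all genes passed. In WT 6 were lower and 1 higher, where 8.9% of all genes passed. Lyl1 was among the lower ones in both, at -1.52 ± 0.29 in SF1 and -2.06 ± 0.29 in WT.

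Partners and relatives of the members formed a second list of 43 genes, of which 41 were tested with v4 and 40 with v2. Meis3, a paralogue of Meis1, was lower in SF1 in both CD41 fractions, at 1.13 ± 0.503 CPM in SF1 and 4.34 ± 0.355 CPM in WT in CD41-positive HSC, and at 2.80 ± 1.01 CPM in SF1 and 9.81 ± 2.31 CPM in WT in CD41-negative HSC. F2r, a thrombin receptor through which activated protein C signals when bound to Procr, was the 1 partner higher in SF1 CD41-negative HSC. It was at 368 ± 12.9 CPM in SF1 and 153 ± 26.4 CPM in WT. There 9 partners were lower, where 13.4% of all genes passed (7.94% lower, 5.48% higher). Among the lower ones was Thbd, which with Procr promotes protein C activation, at 4.04 ± 0.764 CPM in SF1 and 9.98 ± 2.61 CPM in WT. F2r and Thbd were higher in CD41-positive than in CD41-negative HSC of WT, each at 1.59 (SE 0.17 and 0.27), where Procr was lower. In all, 8 partners were higher and 12 lower in CD41-positive HSC of SF1, and 8 higher and 10 lower in WT, of 41 tested, where 34.3% and 34% of all genes passed. Snrpn, an imprinted neighbour in the region of Ndn, was higher in SF1 than in WT MkP, at 1.07 ± 0.548 CPM in SF1 and 0.0553 ± 0.0268 CPM in WT. The WT mean is below the floor of 3 counts in those libraries (0.0748 to 0.098 CPM). WT MkP also lacked counts for more of the well-expressed genes, and the part of this in the Snrpn difference was not tested. In LT-HSC 0 of 40 partners passed between genotypes.

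**Figure D4:**
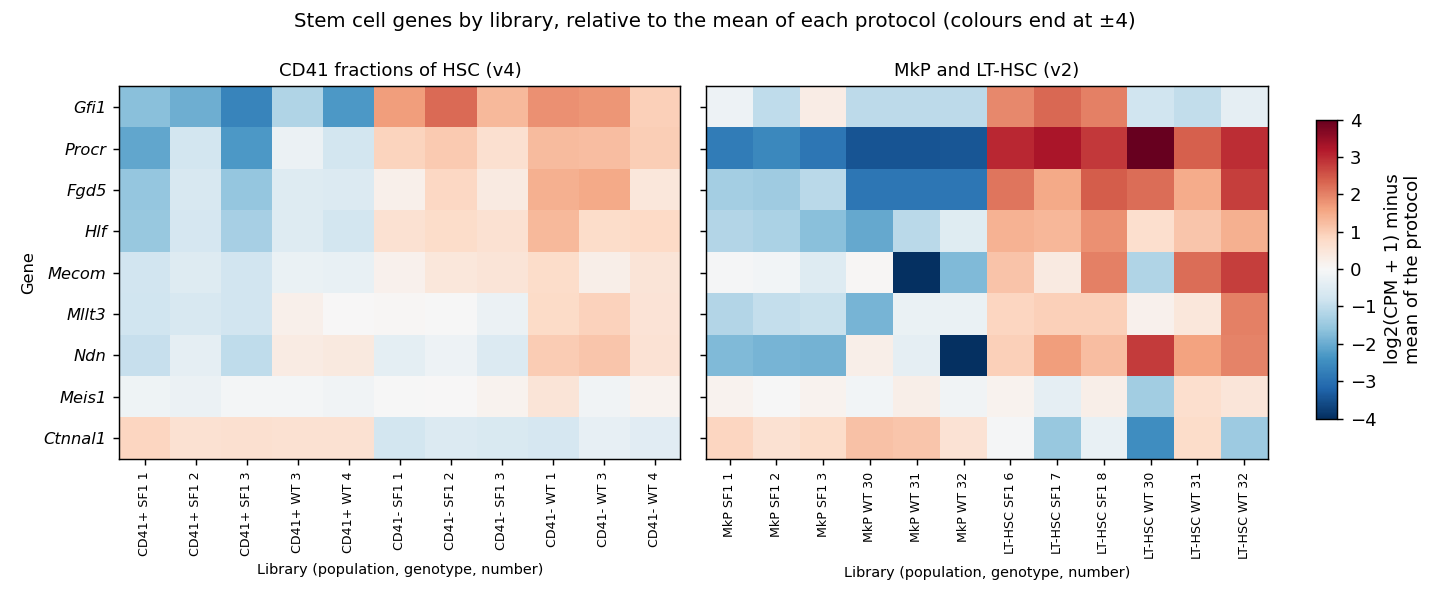
Each cell is log2(CPM + 1) of a gene (rows) in a library (columns), less the mean of its protocol, from blue (lower) to red (higher), with colours ending at -4 and 4. Procr, Fgd5, Hlf and Gfi1 share a block of low values in CD41-positive HSC, Procr and Fgd5 do so in MkP, and Ctnnal1 runs the other way.

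Across the 23 libraries, after subtracting the mean of each protocol from log2(CPM + 1), Procr and Fgd5 correlated at r = 0.96, Procr and Hlf at 0.91 and Procr and Ctnnal1 at -0.81. These values are descriptions over libraries that share populations, depth and protocol. Mllt3 and Ndn correlated at 0.94 over the 11 v4 libraries and at 0.58 over the 12 v2 libraries. Over all libraries Meis1 stood apart from most others, with r of -0.085 with Procr, 0.044 with Fgd5, -0.090 with Ndn and 0.37 with Ctnnal1. The protocols differed in this. Within v4 Meis1 correlated with Procr at 0.56, Fgd5 at 0.59, Ndn at 0.42 and Ctnnal1 at -0.66. Within v2 the same values were -0.18, -0.049, -0.15 and 0.58.

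Among 8925 other genes averaging at least 10 CPM in both protocols, the most similar to Procr was Efna1 (r = 0.99), followed by Ly6a and Chrnb1 (both 0.98). For Fgd5 they were Rora, Zfp532 and Chrnb1 (all 0.96), for Hlf Il16 (0.96), Myof and Ablim1 (both 0.95), and for Mecom Ezh1 (0.97), Rai14 and Zfp521 (both 0.95). Nkx2-3, a homeobox gene, was the most like Mllt3 (0.92), and C1rl the most like Ndn (0.94). The genes most like Ctnnal1 were Kif20a (0.94), a kinesin of dividing cells, Ipo5 and Racgap1 (both 0.93), the last a regulator of cytokinesis. Meis1 and Gfi1 had looser matches, Nub1 at 0.91 and Acot2 at 0.79.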

How the data were processed

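RNA-seq libraries of 8 groups were compared within each SMART-Seq protocol. The authors deposited whole-number counts per gene with gene lengths in bases. Reads were aligned to mm10 with STAR 2.5.2a, and R 3.4.2 and limma were used, per the submitters' processing notes. Counting tool, strand setting and annotation: not given in the sources used here. Both the 9 members and the gene lists were chosen with earlier results of these data known.

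From the deposited counts, CPM, fold changes and tests were computed in R 4.3.3 with edgeR 4.0.16: filterByExpr by group, TMM, 1 mean per group, the quasi-likelihood F test over all libraries of a protocol, and Benjamini-Hochberg adjustment over all genes tested within each of 10 comparisons (threshold 0.05). The fits were tested on simulated data. The SE of a log2 fold change was derived from the test, as its absolute value divided by the square root of the F statistic. CPM per kb used the deposited lengths. Groups at 0 were set at a floor of 3 counts per library (0.0597 to 0.171 CPM), and exact 95% intervals of count ratios cover counting error only, as do the floors. From the 2 lists, up to 4 genes per comparison with the smallest adjusted p among those that passed are named, except results not reported here. For likeness, the 3 genes with the highest Pearson r were found, with no p. Promoters came from RefSeq, which matched 9 of 9 members.

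Alternatives were DESeq2 1.42.0, limma-voom (limma 3.58.1), scaling by RLE, all genes kept, genes kept at 5 CPM in 3 libraries, only the groups compared, each library left out, the male libraries left out, and the replicate number as a block. Equal numbers in the SF1 CD41 fractions paired: residual profiles correlated at 0.301, 0.419 and 0.298 over 14467 genes, so for these fractions blocked values are given where they change a call. The other shared numbers showed no such pairing.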

Additional observations from a re-analysis of the deposited data

Results flagged for a closer look

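In the main fit, the difference between SF1 and WT in Fgd5 and in Procr was not the same in MkP as in LT-HSC, by a test of the difference itself. The call of Fgd5 ended in 4 of 17 alternatives and that of Procr in 7 of 17. In LT-HSC, SF1 libraries came from males and WT libraries from females, so genotype and sex cannot be told apart in that arm. The fitted difference of log2 fold changes, MkP minus LT-HSC, was 9.21 for Fgd5 (edgeR adjusted p = 0.0153) and 5.92 for Procr (edgeR adjusted p = 0.0305). Fgd5 was higher in 3 of 3 SF1 MkP libraries than in all 3 WT ones and overlapped between genotypes in LT-HSC, and so did Procr. Because WT MkP held 0 counts of Fgd5 and 1 of Procr, the size of both values depends on the prior count of the fit and is no bound. WT MkP also lacked counts for more of the well-expressed genes than SF1 MkP, and the part of this in both differences was not tested.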

How the results depend on the processing

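Members called changed as follows. The replicate number as a block gave 4 members in SF1 against WT CD41-negative HSC (Procr, Fgd5, Mllt3 and Ndn), with 3983 genes called in place of 1941. Across genotypes an equal number cannot mark the same mouse, and only numbers 1 and 3 occur in both. Equal numbers of SF1 and WT CD41-negative libraries correlated at -0.117 and -0.037, in the WT CD41 fractions at 0.0429 and 0.0242, and in WT MkP and LT-HSC at -0.0328, -0.00603 and 0.0231. They share a number without evident pairing, and not every library correlated best with its own number. The 2 WT CD41-positive libraries did, but their residuals mirror each other, so the check cannot decide there. With the block, Mllt3 passed in WT MkP against LT-HSC, at -1.73 (edgeR adjusted p = 0.0119), with 2195 genes called in place of 1271. Besides Ndn in the SF1 fractions, the block changed no call in the paired fractions. For CD41-positive against CD41-negative HSC in WT, DESeq2 and limma-voom each gave 8 members (Ndn added). In LT-HSC, DESeq2 and limma-voom gave 1 member (Gfi1). In MkP a fit of only the groups compared gave 1. For MkP against LT-HSC in WT, DESeq2 gave 6, limma-voom 6 and only the groups compared 1; in SF1, DESeq2 gave 5 and only the groups compared 8. The difference of effects in v2 gave 1 with limma-voom. With single libraries left out, members called ran from 0 to 3 in CD41-positive HSC between genotypes, 4 to 8 for CD41-positive against CD41-negative in WT, 3 to 6 for MkP against LT-HSC in WT, 1 to 2 in SF1, and 0 to 2 for the v2 difference of effects.

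None of the values that changed sign was called. Gfi1 in CD41-negative HSC became -0.065 without the male libraries and -0.39 with the replicate block. With limma-voom, Meis1 in LT-HSC became 0.036, Ctnnal1 in LT-HSC 0.44, Ndn in MkP 0.84 and Meis1 in WT MkP against LT-HSC 0.019, or 0.050 with the replicate block. With single libraries left out, the log2 ranges were -0.31 to 0.0085 for Meis1 and -0.066 to 0.45 for Gfi1 in CD41-negative HSC, and -1.28 to 0.51 for Gfi1 in CD41-positive HSC. In LT-HSC they were -0.61 to 0.36 for Procr, -0.46 to 0.082 for Fgd5, -0.51 to 0.55 for Mllt3, -0.54 to 0.19 for Meis1 and -0.50 to 1.44 for Ctnnal1. Hlf in MkP ran from -0.60 to 0.17, and Meis1 in MkP against LT-HSC from -0.58 to 0.16 in WT and -0.10 to 0.20 in SF1. The difference of effects between the CD41 fractions ran from -0.13 to 0.052 for Mllt3 and -0.057 to 0.33 for Ndn.

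Counts over all genes moved more than those of members: over all alternatives, 269 to 6021 genes passed between genotypes in CD41-negative HSC (6021 without WT library 4), 32 to 520 in CD41-positive HSC, 0 to 500 in LT-HSC, 46 to 1137 in MkP, 14 to 2803 for MkP against LT-HSC in WT, 31 to 2972 in SF1, 0 to 1766 for the difference of effects between the CD41 fractions (1766 without CD41-negative WT library 4), and 1215 to 7082 for CD41-positive against CD41-negative in WT. The cause was not tested. The calls of Mllt3 and Ndn in CD41-negative HSC held under all 14 alternatives. A fit without a WT CD41-positive library leaves 1 in that group, assumed to vary like the other groups. Low counts limit Gfi1 in CD41-positive HSC and Procr, Fgd5, Gfi1 and Snrpn in MkP.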
